A study of Mus musculus with 9 samples.

Results

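Mitochondrial respiratory chain subunits were described here as the nuclear genes whose symbols mark them as parts of complexes I to V. These are the Ndufa, Ndufb, Ndufc, Ndufs, Ndufv, Sdha to Sdhd, Uqcr, Cox4i, Cox5 to Cox8 and Atp5 genes, without assembly factors and pseudogenes. Each gene was read from the probe set, assigned to that gene alone, that had the highest mean over all arrays. This gave 82 genes out of 18193 on the array, of which 36 belong to the Nduf group (complex I by symbol), 4 to complex II, 8 to complex III, 17 to complex IV and 17 to complex V. The rule uses symbols, and the mean over all arrays to pick the probe set.

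The inactivated group comprised 5 mice, labelled Alox12b fl/fl Cre (genotype p/p +/cre), which carried floxed Alox12b alleles and a tamoxifen-dependent Cre-ERT2 recombinase under the keratin 14 promoter. The control group comprised 4 littermates, labelled Alox12b fl/fl (genotype p/p +/+), with the same floxed alleles and no Cre. All mice were on the hairless SKH1 background after 5 generations of backcrossing, were 8 weeks old and received 3 injections of 1 mg tamoxifen. The epidermis was scratched off frozen skin 6 days after the treatment, and its RNA was read on Affymetrix mouse arrays labelled from the 3' end of transcripts. The keratin 14 promoter limits the recombinase to basal keratinocytes and their descendants, and Cre and loss of Alox12b went together in every array.

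The respiratory chain sits in the inner mitochondrial membrane. Complexes I and II feed electrons from NADH and succinate into coenzyme Q, complex III passes them to cytochrome c, and complex IV hands them to oxygen. The proton gradient built on the way drives ATP synthase, which is complex V. Most subunits are encoded in the nucleus, and some complex IV subunits exist as paralogues restricted to muscle and brown fat, testis or lung. In epidermis, mitochondria are lost as keratinocytes cornify.

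The values are log2 levels of a probe set. Array medians were 4.34 to 4.42 and the highest values 13.47 to 13.53. Arrays have no read depth, and precision depends on how many were run. Of 7 measured keratinocyte markers, 1 rose, 2 fell and 4 did not pass, and their summed linear level was 37970 to 45780 in the inactivated group and 43720 to 45470 in the controls. All 7 fibroblast markers and all 5 smooth muscle markers fell, with median log2 differences of -1.01 and -0.62, and all 4 melanocyte markers rose, with a median of 2.15. In such bulk samples, fewer cells of a type and less RNA per cell cannot be told apart. Skeletal muscle markers were by far the highest on inactivated replicate 4, where their summed linear level was 1653. On inactivated replicates 1, 2, 3 and 5 it was 161.8, 205.2, 261.3 and 135.4, against 122.5 to 150.6 on the controls. All 12 of these markers had positive differences, with a median of 0.99, and 2 passed as higher. Levels of Xist and Y-linked transcripts, read because the labels give no sex, divided the arrays into 3 female and 2 male inactivated mice and 1 female and 3 male control mice.

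The comparison asked whether respiratory chain transcripts differed 6 days after Alox12b, a lipoxygenase of the skin barrier, had been inactivated. Most of them moved little. Differences were positive in 55 and negative in 27, while over all genes 9953 were positive and 8240 negative. By limma with Benjamini-Hochberg adjustment over all 45037 probe sets, 15 of the 82 rose, 9 fell and 58 did not pass. The members called made up 29.3%, against 34.4% of all genes, with 15.5% of all genes higher and 18.9% lower. None of the 82 differed by 2-fold or more, a size that 5.77% of all genes reached among those that passed. Their differences ran from -0.80 to 0.51 with a median of 0.07, beside a median of 0.03 over all genes, and their median absolute difference was 0.153 against 0.207. The groups did not overlap in 27 members, of which 18 were higher and 9 lower in the inactivated group, while 31.6% of all genes did not overlap. Of the 24 members that passed, 23 did not overlap, the exception being Ndufa4l2.

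Members lie mostly among the brighter probe sets, where calls are more common. Of the 82, 78 had a mean at or above the median of all probe sets. With the other probe sets left out, 28 of these 78 members passed, 19 of them higher and 9 lower. Among all genes kept by the same filter 49.1% passed. The members also varied little between mice, with a median standard deviation within groups of 0.093, against 0.15 over all genes. Of the 58 members that did not pass, 55 had a 95% interval of the difference that lay within 0.5 of 0 on the log2 scale, the exceptions being Cox7a1, Cox8b and Cox6a2.

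**Figure D1:**
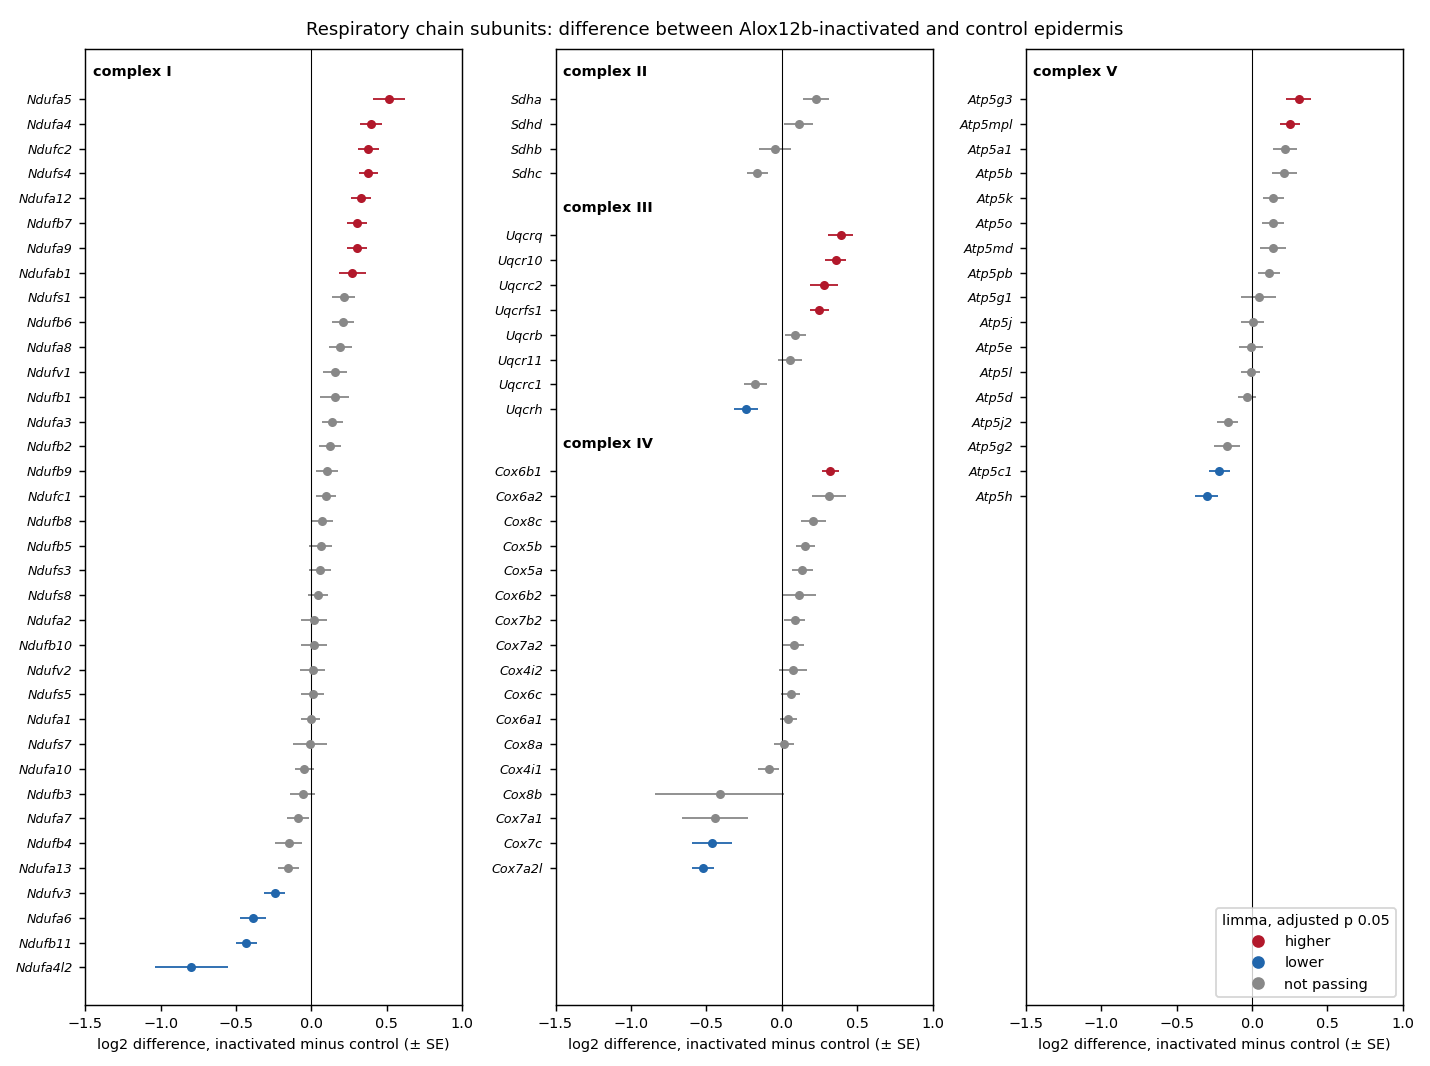
Log2 difference between inactivated and control epidermis for each of the 82 subunits, by complex, with the standard error of the limma fit over 5 and 4 arrays. Red points passed as higher (15), blue points as lower (9), and grey points did not pass (58); all lie between -0.80 and 0.51.

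One array stood apart for these genes. Against the control mean of each gene, the median of the 82 members was 0.20 on inactivated replicate 5, and between -0.01 and 0.11 on inactivated replicates 1 to 4. On the controls it was between -0.02 and 0.03. Inactivated replicate 5 held the highest value of its group in 54 of the 82 members. Among the controls, replicate 1 held the highest value in 45. Without inactivated replicate 5, 14 members were higher and 11 lower, and 13 and 9 of these were among the original calls. Of all genes 35.4% were called in that fit, against 34.4% with all arrays. With sex as a covariate 13 were higher and 9 lower, all of them among the original calls, and 32.9% of all genes were called. Whether group differences depended on sex could hardly be tested, with 1 female control. The limma interaction term passed in 0 of 82 members (1 at an unadjusted p of 0.05) and in 1 gene of the whole array. When the array medians were first subtracted, 24 members were higher and 7 lower. All genes shifted the same way under that centring, to 3558 higher and 3037 lower, against 2816 and 3434 without it.

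The promoters of 67 of the 82 members were in the RefSeq table of GRCm38.p6, taken as the 250 bases before the most upstream start that this table lists for a gene. That start can lie inside the annotated gene, as it does for Cox7a2 and Atp5g3. They were searched on both strands for letters that known regulators of respiratory genes bind. The core GCGCATGC of NRF1 was present in 7 of 67 (10.4%), against 2.31% of all 27025 promoters in the table. The ETS letters CCGGAAG, bound by GABPA among others, were in 11 of 67 (16.4%), against 7.07% of all. The ERR letters CAAGGTCA were in 3 of 67 (4.48%), against 1.3%, and the YY1 letters AAGATGGC were in none of 67, against 1.58%. Among members that rose, 0 of 12 held the NRF1 core and 2 of 12 the ETS letters. Among those that fell the numbers were 1 and 2 of 8, and among those that did not pass 6 and 7 of 47. A match describes these letters only.

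The promoters listed here are shown because they place those letters beside members that moved in opposite directions or hardly at all. Capitals mark the NRF1 core or the ETS letters, read on either strand, and the sequences run 5' to 3' on the strand of the gene, up to the last base before the start. Ndufa6 (chr15:82354292-82354541, minus strand) fell and holds an NRF1 core that begins 83 bases before the start. Atp5h (chr11:115419920-115420169, minus strand) fell and Cox6b1 (chr7:30626115-30626364, minus strand) rose, and both hold ETS letters, beginning 38 and 28 bases before the start. Cox6a1 (chr5:115348959-115349208, minus strand), which did not pass, holds the NRF1 core on both strands, overlapping itself, and ETS letters 16 bases before the start.
Ndufa6: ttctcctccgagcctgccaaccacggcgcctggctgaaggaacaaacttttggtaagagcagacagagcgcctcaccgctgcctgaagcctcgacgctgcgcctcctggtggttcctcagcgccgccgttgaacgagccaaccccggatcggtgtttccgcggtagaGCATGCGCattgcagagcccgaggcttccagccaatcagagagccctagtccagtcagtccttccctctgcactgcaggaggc
Atp5h: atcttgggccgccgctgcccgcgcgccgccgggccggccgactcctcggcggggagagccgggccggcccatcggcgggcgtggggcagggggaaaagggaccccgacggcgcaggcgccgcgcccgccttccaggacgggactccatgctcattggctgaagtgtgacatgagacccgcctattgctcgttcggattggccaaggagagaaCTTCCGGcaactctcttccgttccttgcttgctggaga
Cox6b1: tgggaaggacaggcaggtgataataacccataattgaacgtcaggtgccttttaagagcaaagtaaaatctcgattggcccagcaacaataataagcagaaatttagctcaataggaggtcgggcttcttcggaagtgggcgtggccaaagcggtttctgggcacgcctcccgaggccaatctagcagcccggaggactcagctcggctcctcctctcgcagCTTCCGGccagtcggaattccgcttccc
Cox6a1: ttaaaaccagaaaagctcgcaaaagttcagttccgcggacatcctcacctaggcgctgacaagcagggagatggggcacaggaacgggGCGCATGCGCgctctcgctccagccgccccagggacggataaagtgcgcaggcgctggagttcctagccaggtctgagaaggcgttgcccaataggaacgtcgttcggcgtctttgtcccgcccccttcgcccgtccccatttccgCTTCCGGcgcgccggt

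Complex I takes electrons from NADH. Among its 36 members by symbol, 8 rose, 4 fell and 24 did not pass, with a median of 0.07. The share called was 33.3%, against 34.4% of all genes. The NADH-binding N module had 2 higher and 1 lower of 8, and the Q module, which reduces coenzyme Q, had 2 higher and 1 lower of 6. The other 22, mostly membrane arm subunits, had 4 higher and 2 lower. The calls of the 4 members with the largest rises, Ndufa5, Ndufa4, Ndufc2 and Ndufs4, and of the falls of Ndufb11 and Ndufa6 held under all alternatives tried.

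Ndufa5, an accessory subunit of the Q module, had 9.04, 9.25, 8.85, 8.94 and 9.28 in the inactivated group, against 8.64, 8.39, 8.63 and 8.56 in the controls. It rose by 0.51 ± 0.10 (SE), or 1.43-fold (limma adjusted p = 0.00421), and its second probe set rose by 0.45 ± 0.10. Every inactivated array lay above every control array. Ndufs4, an N module subunit whose loss in mice causes a Leigh-like disease, had 7.96, 8.07, 8.04, 8.07 and 8.07 in the inactivated group and 7.69, 7.59, 7.74 and 7.64 in the controls. It rose by 0.38 ± 0.06 (limma adjusted p = 0.00141), and the groups did not overlap. Of its dimmer probe sets 2 rose, both by 0.44, and 1 differed by -0.35 ± 0.14 and did not pass (adjusted p = 0.0828). The mean of all 4 differed by 0.229 (adjusted p = 0.0148). Ndufc2, of the membrane arm, had 10.24, 10.11, 10.14, 10.25 and 10.27 in the inactivated group, against 9.85, 9.90, 9.77 and 9.77 in the controls. The difference was 0.38 ± 0.07 (limma adjusted p = 0.00196), and 2 further probe sets rose by 0.47 and 0.42, while the dimmest differed by 0.12 and did not pass. The remaining 4 members that rose were Ndufa12, Ndufb7, Ndufa9 and Ndufab1, with 0.33, 0.30, 0.30 and 0.27; all but Ndufab1 were named after their values were seen.

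Ndufab1, the mitochondrial acyl carrier protein that is also bound in complex I, was the only member whose probe sets passed in both directions. The probe set used rose by 0.27 ± 0.09, another rose by 0.40 ± 0.08, and a dimmer one fell by 0.45 ± 0.15 (adjusted p = 0.0498). Its call was lost without inactivated replicate 2, 4 or 5 or control replicate 2, 3 or 4, with adjusted p of 0.076 to 0.131, and with sex as a covariate (adjusted p = 0.0898). The mean of its 5 probe sets differed by 0.034 (adjusted p = 0.784). For Ndufa12, an N module subunit, 2 further probe sets rose by 0.47 and 0.49, and the remaining, dimmer one differed by -0.05 ± 0.16 and did not pass.

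Ndufb11, an X-linked membrane arm subunit, had 10.51, 10.41, 10.33, 10.45 and 10.60 in the inactivated group and 10.86, 10.89, 10.93 and 10.89 in the controls. It fell by 0.43 ± 0.07 (limma adjusted p = 0.0012), and both other probe sets fell, by 0.38 and 0.40. All inactivated arrays lay below all controls. Ndufa6, of the Q module, whose promoter is printed above, had 9.03, 9.26, 8.98, 9.18 and 9.34 in the inactivated group, against 9.64, 9.53, 9.51 and 9.51 in the controls. It fell by 0.39 ± 0.09 (limma adjusted p = 0.00712), without overlap. The N module subunit Ndufv3 fell by 0.24 ± 0.07 (limma adjusted p = 0.0222). That call was lost without control replicate 2, 3 or 4, where the adjusted p was 0.0583, 0.0737 and 0.056.

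The related genes Ndufa4 and Ndufa4l2 changed in opposite directions. Ndufa4, named for complex I but now counted as a subunit of complex IV, had 11.80, 12.03, 12.06, 12.06 and 11.97 in the inactivated group and 11.54, 11.60, 11.60 and 11.62 in the controls. It rose by 0.39 ± 0.07, or 1.31-fold (limma adjusted p = 0.00258), with no overlap. Ndufa4l2, a paralogue that hypoxia induces through HIF-1 and that is also abundant in pericytes and smooth muscle of vessels, had 7.11, 7.37, 8.52, 7.95 and 7.83 in the inactivated group, against 8.71, 8.73, 8.38 and 8.38 in the controls. It fell by 0.80 ± 0.24, or 1.74-fold (limma adjusted p = 0.0314), which was the largest difference among the 82. Inactivated replicate 3 lay among the controls. The call was lost without inactivated replicate 2 (difference -0.70, adjusted p = 0.0683) and without control replicate 1, 2, 3 or 4 (adjusted p of 0.0785, 0.0859, 0.0531 and 0.0537). It was also lost without variance moderation (adjusted p = 0.0904) and without replicate 4 of both groups, a setting chosen after seeing the data (adjusted p = 0.0747). The Ndufa4l2 difference was larger with sex as a covariate (-1.01, limma adjusted p = 0.00354) and without inactivated replicate 3 (-0.988, limma adjusted p = 0.00367). The smooth muscle markers Acta2, Tagln, Myh11, Cnn1 and Des all fell too. The median of their log2 levels was 6.49, 6.05, 6.32, 6.76 and 6.64 on inactivated replicates 1 to 5. On control replicates 1 to 4 it was 6.77, 7.17, 7.05 and 7.16. Of 4 endothelial markers 1 rose and 3 did not pass, with a median difference of 0.08. The part of vessel cells in the Ndufa4l2 difference was not tested.

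**Figure D2:**
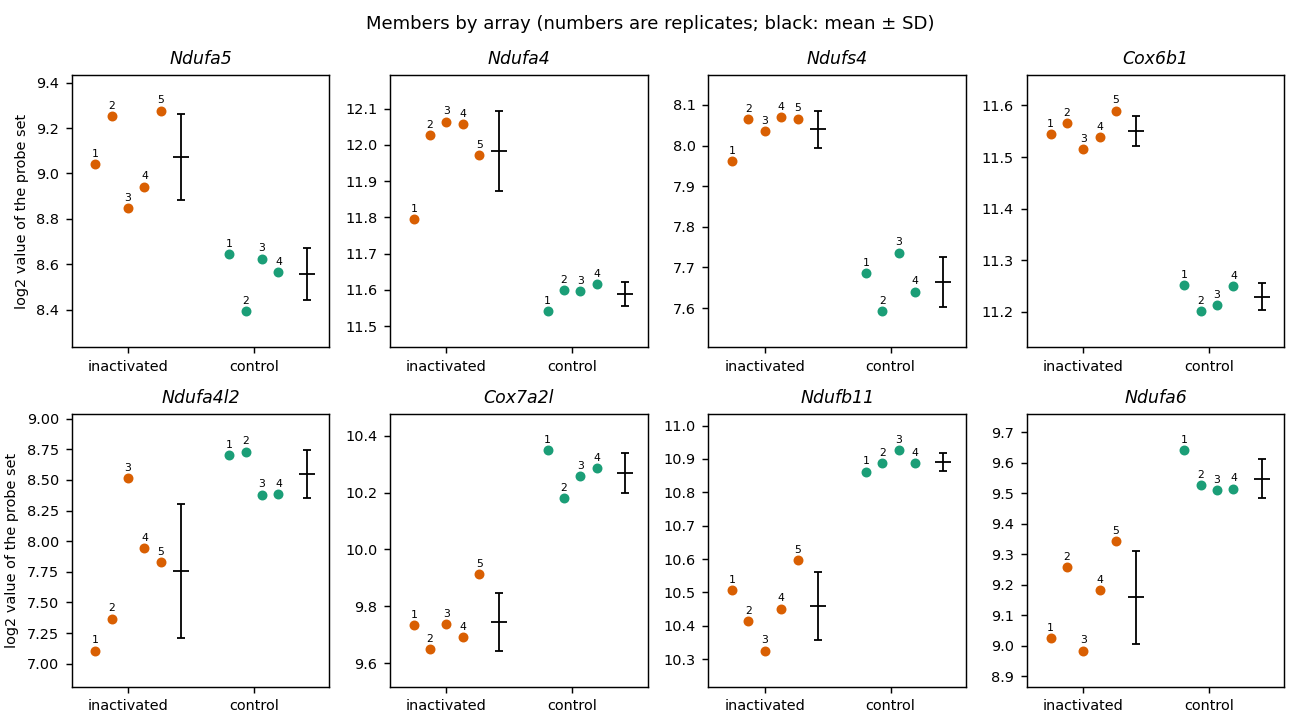
Log2 value of the probe set on each array (points, numbered by replicate) for 8 subunits, with the mean and SD of each group in black. The groups separate for all of them except Ndufa4l2, where inactivated replicate 3 (8.52) lies among the controls (8.38 to 8.73).

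Complex II is succinate dehydrogenase, which also works in the citrate cycle. None of its 4 subunits passed (limma; 2 of 4 at an unadjusted p of 0.05). The differences were 0.23 for the flavoprotein Sdha, -0.04 for the iron-sulfur protein Sdhb, and -0.16 and 0.11 for the membrane anchors Sdhc and Sdhd. Sdhb had 8.97, 9.09, 9.01, 9.13 and 9.51 in the inactivated group and 9.25, 9.21, 9.14 and 9.13 in the controls. Inactivated replicate 5 was above every control, and inactivated replicates 1 to 4 were below every control. Without that replicate the Sdhb difference was -0.135 (adjusted p = 0.175).

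Complex III passes electrons from coenzyme Q to cytochrome c. Of its 8 measured subunits 4 rose, 1 fell and 3 did not pass, with a median of 0.17. The share called was 62.5% of these few genes, against 34.4% of all genes. With probe sets below the median left out, 49.1% of all genes kept were called. Uqcrq, which sits beside cytochrome b, had 10.38, 10.50, 10.32, 10.37 and 10.68 in the inactivated group and 10.12, 10.06, 10.04 and 10.02 in the controls. It rose by 0.39 ± 0.08 (limma adjusted p = 0.00539), and of 3 dim further probe sets 2 rose, by 0.42 and 0.37, and 1 did not pass, at 0.32. The call was lost where probe sets that can match several transcripts were left out (0.324, adjusted p = 0.0672). Uqcr10, a small membrane subunit, had 9.71, 9.82, 9.72, 9.82 and 9.92 in the inactivated group, against 9.53, 9.38, 9.40 and 9.45 in the controls. Its difference was 0.36 ± 0.07 (limma adjusted p = 0.00333), but its other probe sets read 0.11 and 0.14 and did not pass (adjusted p of 0.832 and 0.892).

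The Rieske iron-sulfur protein Uqcrfs1 rose by 0.25 ± 0.06 (limma adjusted p = 0.0152), and the core protein Uqcrc2 by 0.28 ± 0.09 (limma adjusted p = 0.0408). The Uqcrc2 call was lost without inactivated replicate 1, 2 or 5 or any single control, with adjusted p of 0.0567 to 0.116, and with sex as a covariate (adjusted p = 0.0575). Uqcrh, the hinge protein that contacts cytochrome c1, fell by 0.24 ± 0.08 (limma adjusted p = 0.0458), and its second probe set by 0.27. The Uqcrh call held without inactivated replicate 5, and was lost without any other single array, with adjusted p of 0.0663 to 0.117. It was also lost with array medians subtracted (adjusted p = 0.105). The other core protein, Uqcrc1, differed by -0.18 and did not pass, so the 2 core proteins of 1 complex had differences of opposite sign. Uqcrb, which binds cytochrome b, differed by 0.09, and its second probe set passed with 0.26 (adjusted p = 0.0252).

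Complex IV reduces oxygen. Of its 17 measured members by symbol 1 rose, 2 fell and 14 did not pass (17.6% called, against 34.4% of all genes). This count leaves out Ndufa4, which rose and was counted with complex I by its symbol. Cox6b1, a subunit at the contact between the monomers of the complex IV dimer, had 11.54, 11.57, 11.52, 11.54 and 11.59 in the inactivated group and 11.25, 11.20, 11.21 and 11.25 in the controls. It rose by 0.32 ± 0.06, or 1.25-fold (limma adjusted p = 0.00211), and its second probe set rose by 0.58 ± 0.07. The arrays of each group lay close together and far from those of the other. Cox7a2l, also called SCAF1, joins complexes III and IV into supercomplexes. It had 9.73, 9.65, 9.74, 9.69 and 9.91 in the inactivated group, against 10.35, 10.18, 10.26 and 10.29 in the controls. It fell by 0.52 ± 0.07 (limma adjusted p = 0.000497), and its 2 further probe sets fell by 0.54 and 0.45. All inactivated arrays lay below all controls, and the call held under the 22 alternatives that could measure it. All 3 probe sets drop out where probe sets that can match several transcripts are left out, so the call was not tested there. Its paralogue Cox7a2, a structural subunit, differed by 0.08 ± 0.07 and did not pass.

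Cox7c had 5.58, 5.51, 6.11, 6.00 and 6.04 in the inactivated group and 6.37, 6.26, 6.25 and 6.36 in the controls. It fell by 0.46 ± 0.13 (limma adjusted p = 0.0222), without overlap. The call was lost without control replicate 1 or 4, with adjusted p of 0.0565 and 0.0613, and after quantile normalisation (adjusted p = 0.0575). The other Cox7c probe set did not pass (difference -0.27). The widely expressed subunits Cox4i1, Cox5a, Cox5b, Cox6a1, Cox6c and Cox8a differed by -0.09, 0.13, 0.16, 0.04, 0.06 and 0.02, and none of them passed. Cox5a, Cox5b and Cox6c were named after their values were seen. For Cox5b, which binds zinc, 4 of 5 further probe sets passed as higher, with 0.18 to 0.31.

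No tissue-restricted paralogue passed. Cox7b2, Cox7a1 and Cox8b lay below the median probe set mean of 4.4, and Cox4i2, Cox6b2, Cox6a2 and Cox8c above it. Cox4i2, a lung and hypoxia form, differed by 0.07, and Cox6b2, Cox7b2 and Cox8c, known from testis, by 0.12, 0.09 and 0.21. Cox8c passed after quantile normalisation, cyclic loess or centring (0.31, 0.29 and 0.25, with adjusted p of 0.0272, 0.0323 and 0.0438). Cox8b and Cox7a1 are forms of heart, skeletal muscle and brown fat. Cox8b had 3.36, 2.98, 3.10, 4.73 and 3.13 in the inactivated group and 3.08, 3.81, 3.54 and 5.05 in the controls. Cox7a1 had 2.40, 2.26, 2.47, 3.31 and 2.50 in the inactivated group, against 2.98, 2.99, 2.66 and 3.49 in the controls. Replicate 4 was the highest of its group for both genes in both groups.

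The same 2 arrays were the highest for Ucp1, the uncoupling protein of brown fat. Ucp1 had 3.31, 3.36, 3.10, 5.17 and 3.16 in the inactivated group and 3.08, 3.31, 2.89 and 5.50 in the controls. The fat marker Adipoq was also highest there, with 8.30 on inactivated replicate 4 and 6.06 on control replicate 4, against 2.23 to 4.92 on the other arrays. Of 6 measured fat markers 1 rose and 5 did not pass, with 3 differences positive and 3 negative. The median of their log2 levels was 7.67 and 5.78 on these arrays, against 3.89 to 4.97 on the others. Their summed linear level was 2588 on inactivated replicate 4, the highest of all arrays. On control replicate 4 it was 1148, the highest of the controls but below the 1363 on inactivated replicate 1. Skeletal muscle markers followed another pattern. Acta1 had 4.70, 5.23, 5.74, 8.96 and 4.41 in the inactivated group, against 4.61, 4.85, 4.76 and 4.04 in the controls, so control replicate 4 was the lowest. The part of fat and muscle in the Cox8b and Cox7a1 values was not tested. Without inactivated replicate 4 the Cox7a1 difference passed (-0.625, limma adjusted p = 0.0168), as it did with control replicate 4 left out as well (-0.47, adjusted p = 0.0233). That second setting was chosen after seeing the data; in it Cox8b differed by -0.34 (adjusted p = 0.211), and 10 members were higher and 5 lower, while the share of all genes called fell to 22.1%. The muscle form Cox6a2 had 5.03, 5.36, 5.11, 5.45 and 4.98 in the inactivated group and 4.80, 4.74, 5.06 and 4.88 in the controls. Its difference was 0.32 (adjusted p = 0.061), and it passed after quantile normalisation, cyclic loess or centring (0.41, 0.37 and 0.36), with probe sets below the median left out (adjusted p = 0.0463; below the 25th percentile, 0.0542) or arrays weighted (adjusted p = 0.0309), and without inactivated replicate 5 (0.37, adjusted p = 0.0364) or control replicate 3 (0.38, adjusted p = 0.0491).

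**Figure D3:**
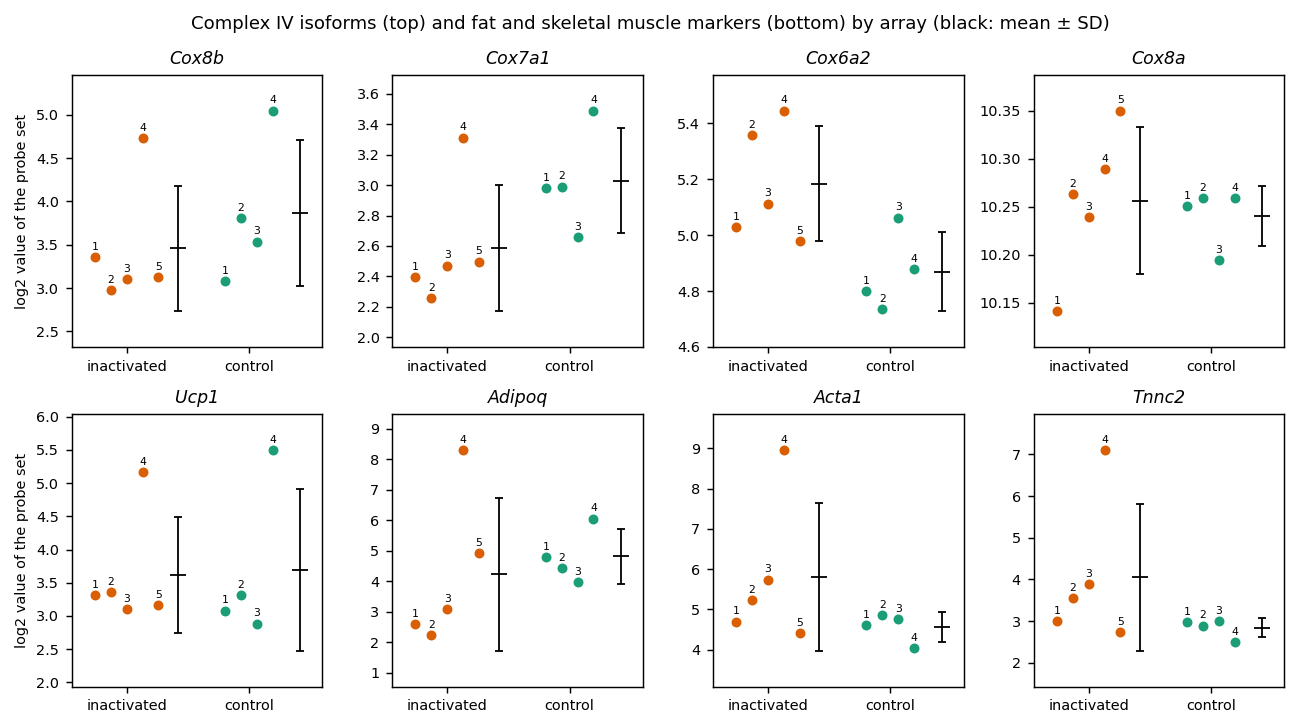
Log2 value of the probe set on each array for 4 complex IV subunits (top row) and for the fat markers Ucp1 and Adipoq and the skeletal muscle markers Acta1 and Tnnc2 (bottom row), with the mean and SD of each group in black. Cox8b, Cox7a1 and Ucp1 are highest on replicate 4 of both groups, whereas Acta1 is by far the highest on inactivated replicate 4 (8.96) and lowest on control replicate 4. The widely expressed Cox8a shows neither pattern.

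ATP synthase, complex V, had 2 of 17 members higher, 2 lower and 13 not passing (23.5% called, against 34.4% of all genes). In the F1 part, which here includes the central stalk subunit Atp5c1, 1 of 5 fell and 4 did not pass. Among the other members 2 of 12 rose and 1 fell. Atp5g3, which encodes the ring subunit c together with Atp5g1 and Atp5g2, had 11.98, 11.82, 11.84, 11.90 and 12.15 in the inactivated group and 11.76, 11.61, 11.53 and 11.61 in the controls. It rose by 0.31 ± 0.09 (limma adjusted p = 0.02), whereas Atp5g1 and Atp5g2, which yield the same mature protein, differed by 0.04 and -0.17 and did not pass. The Atp5g3 call was lost without control replicate 2, 3 or 4, with adjusted p of 0.0517, 0.065 and 0.0529, and after quantile normalisation (adjusted p = 0.0538). The small proteolipid Atp5mpl rose by 0.25 ± 0.07 (limma adjusted p = 0.0157), a call that was lost after quantile normalisation (0.186, adjusted p = 0.0514).

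Atp5h, the peripheral stalk subunit d, had 10.77, 10.88, 10.66, 10.87 and 10.98 in the inactivated group, against 11.19, 11.18, 11.10 and 11.06 in the controls. It fell by 0.30 ± 0.08 (limma adjusted p = 0.015), without overlap, and its second probe set fell by 0.31. The central stalk subunit gamma, Atp5c1, fell by 0.22 ± 0.07 (limma adjusted p = 0.0355). Its call held without inactivated replicate 5 and was lost without any other single array, with adjusted p of 0.0585 to 0.0847. It was also lost with array medians subtracted (adjusted p = 0.0908), with the mean of its probe sets (adjusted p = 0.0538), and with those that can match several transcripts left out (adjusted p = 0.15). The catalytic subunits Atp5a1 and Atp5b differed by 0.22 and 0.21 and did not pass.

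Other mitochondrial gene lists were read beside the subunits, without a test of any list. Over all genes, 34.4% were called. Among 45 assembly factors, 10 rose and 7 fell (37.8% called, median 0.04). Atpaf2, which assembles the F1 head, rose by 0.70 ± 0.07 and Sdhaf3, an assembly factor of complex II, by 0.56 ± 0.09. The largest falls were those of the complex III factors Bcs1l, which inserts the Rieske protein, and Ttc19, by 0.83 ± 0.11 and 0.89 ± 0.14. Bcs1l had 5.78, 6.16, 5.74, 5.78 and 6.20 in the inactivated group and 6.77, 6.65, 6.79 and 6.84 in the controls, while 4 of the 8 complex III subunits themselves rose.

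Electron carriers and coenzyme Q enzymes had 6 of 16 higher and 3 lower, with a median of 0.19. The share called was 56.2%, against 34.4% of all genes. Cycs, the cytochrome c that complex III reduces, had 10.25, 10.65, 10.07, 10.25 and 10.61 in the inactivated group, against 9.87, 9.72, 9.71 and 9.75 in the controls. It rose by 0.60 ± 0.12 (limma adjusted p = 0.00397), without overlap. The coenzyme Q chaperones Coq10b and Coq10a went opposite ways, with 0.79 ± 0.11 and -0.56 ± 0.08. Of 18 genes of the citrate cycle and pyruvate metabolism, 3 rose and 2 fell (27.8% called). The largest rises were those of Pcx (0.61) and Suclg1 (0.38), and Idh2 fell by 0.48 and Ogdh by 0.43.

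Of 16 factors of mitochondrial genome expression and biogenesis, 2 rose and 4 fell, with a median of -0.12. The share called was 37.5%, against 34.4% of all genes. Polg2 and Polg, subunits of the mitochondrial DNA polymerase, fell by 0.53 and 0.43. Gabpa, whose protein binds the ETS letters searched above, fell by 0.39 and was named after its value was seen. Lrpprc and Slirp, partners that stabilise mitochondrial messenger RNA, rose by 0.31 and 0.27. Mitochondrial ribosomal proteins had 17 of 76 higher and 4 lower (27.6% called), and import components 4 of 24 higher and 1 lower (20.8% called). Among 15 measured carriers and inner membrane proteins 4 rose and 2 fell, with the chaperonin Hspd1 up by 0.51 and the phosphate carrier Slc25a3 up by 0.43, and the fusion proteins Mfn2 and Opa1 down by 0.33 and 0.30. None of these genes differed by 2-fold or more.

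**Figure D4:**
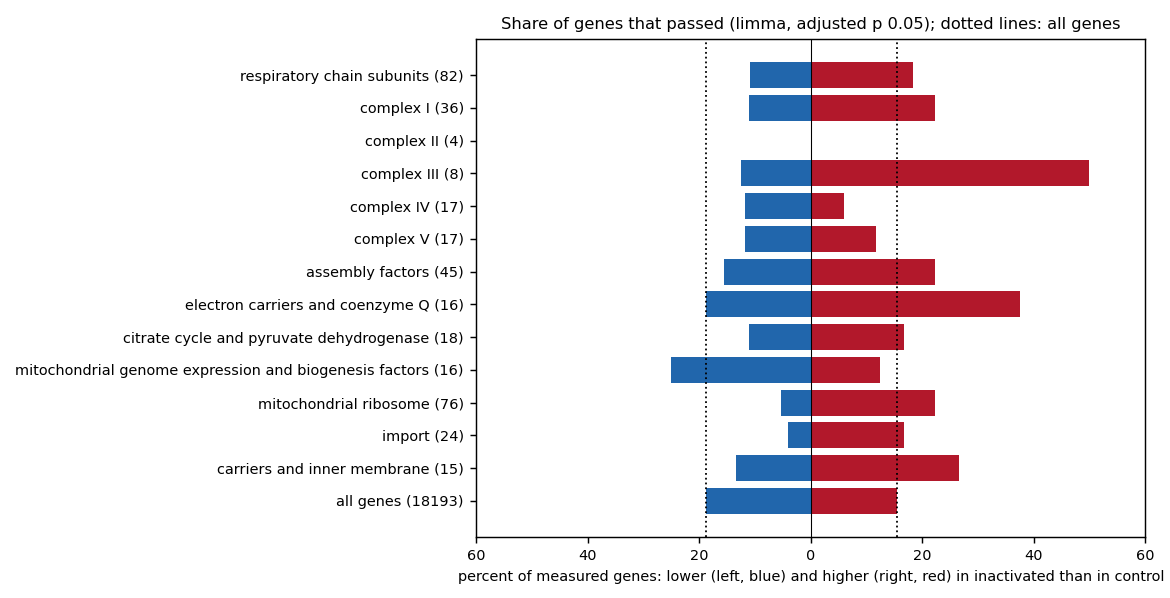
Percent of measured genes that passed as lower (left, blue) or higher (right, red) in the inactivated group than in the controls, by complex and by mitochondrial list, with the number of genes in parentheses. Dotted lines give the shares over all genes, 18.9% lower and 15.5% higher; the bars for all 82 subunits reach 9 genes lower and 15 higher.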

How the data were processed

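Epidermal RNA of 9 mice was measured on Affymetrix Mouse Genome U430 2.0 arrays, 1 array a mouse. The deposited values are log2 levels per probe set. The affy package is named in the submitters' processing notes; its version, the background correction and the normalisation were not given in the sources used here. Nothing was renormalised.

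Probe sets were named from GEO's platform annotation. Of 45037 probe sets, 34945 had 1 gene symbol, 932 had several and 9160 had none here. Those with several were not named; 10 of them list a subunit beside another gene. A gene was read from its single-symbol probe set with the highest mean over the 9 arrays.

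Groups were compared with limma 3.58.1 in R 4.3.3 (lmFit and eBayes, two-sided, no covariate, 7 residual degrees of freedom), with Benjamini-Hochberg adjustment over all probe sets and a threshold of 0.05. Differences are inactivated minus control, with SE. The fit was tested on simulated data with 200 probe sets changed. It recovered 50.8% of log2 changes of 0.5 and 95.2% of changes of 1. The real data had far more calls, and the members varied less than most genes. These percentages therefore do not carry over directly to the members. P-values measure the spread between these mice, which the labels call biological replicates; the labels give no batch. Exact permutation over 126 splits could not go below p = 0.00794.

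Within each complex, up to 4 members with the largest rises and 4 with the largest falls among those that passed were named, with the member of the highest mean level, the tissue-restricted or stress-related paralogues, their widely expressed counterparts, and any member whose probe sets passed in both directions. In other lists, up to 2 rises and 2 falls were named. Any other gene was named after its values were seen. The members, the marker lists and the pathway lists were chosen with earlier results of these data known. Replicate numbers did not pair the arrays. Alternatives covered normalisation, filters on dim probe sets, weights for arrays, variance moderation, sex, a block for the replicate number, the choice of probe set, a stricter threshold and leaving out each array. Promoters came from RefSeq (GRCm38.p6) and were matched by gene identifier.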

Additional observations from a re-analysis of the deposited data

Results flagged for a closer look

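In 6 of 68 sets of values (34 subunits in each of 2 groups), the highest or lowest array lay far from the rest of its group by Dixon's criterion, which chance meets in about 1 in 20 groups. Inactivated replicate 4 was high for Cox7a1 (3.312, others 2.256 to 2.498) and for Cox8b (4.734, others 2.977 to 3.356), the array on which Ucp1, Adipoq and skeletal muscle markers were also the highest of the group. Inactivated replicate 5 was high for Sdhb (9.505, others 8.973 to 9.125). Among the controls, replicate 1 was high for Ndufa6 (9.641, others 9.509 to 9.526). Control replicate 2 was low for Cox4i2 (4.374, others 4.498 to 4.501), and control replicate 3 was low for Cox8a (10.19, others 10.25 to 10.26).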

How the results depend on the processing

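The 15 members higher became 24 with array medians subtracted and 9 with the replicate number as a block. The 9 members lower became 3 at an adjusted p of 0.01, and 5 without replicate 4 of both groups, a setting chosen after seeing the data. Leaving out 1 array gave 12 to 19 higher, 4 to 11 lower and a median difference of 0.0442 to 0.0974; without control replicate 1, 2, 3 or 4 the members lower numbered 5, 5, 5 and 4, while lower calls over all genes numbered 3033, 2879, 2753 and 2757, against 3434 with all arrays. The block left 6 lower, with 29.4% of all genes called against 34.4% without it. The numbers did not pair the arrays (correlations of deviations -0.268, 0.00679, -0.0939 and 0.078). Only the inactivated group has a replicate 5, so under the block that array adds nothing to the difference. The block and the fit without inactivated replicate 5 therefore give the same differences and are not independent alternatives. Over 23 alternatives, 8 of the 24 calls held throughout: Ndufa5, Ndufa4, Ndufc2, Ndufs4, Ndufa9, Ndufb11, Ndufa6 and Cox6b1. Cox7a2l held in the 22 that could measure it. The sign turned for Ndufa12 (-0.0511 with probe sets that can match several transcripts left out). Among members that did not pass, it turned for Cox7a2 and Cox8a with quantile normalisation (-0.0224 and -0.028) and for Cox6a1 with cyclic loess (-0.00236). For Cox8a it also turned with sex (-0.00543), and with the block and without inactivated replicate 5 (-0.00754 in both). Leaving out other arrays gave Cox8a up to 0.0447. The cause was not tested. Low signal limits the 4 members below the median probe set mean of 4.4, which are Cox7b2, Cox7a1, Ndufb4 and Cox8b. For Ndufb4 this holds for the probe set used. Brighter probe sets that also list Ndufb4b and Ndufb4c were set aside, with means of 9.55 and 9.58. They read -0.25 (limma adjusted p = 0.0352) and -0.14 (limma adjusted p = 0.214).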

Other observations

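Dim probe sets of some subunits differed from the brighter ones of the same gene. For Atp5j2, the f subunit of ATP synthase, both brighter probe sets read -0.16 and -0.14 and did not pass, while the dimmest rose by 0.52 ± 0.10 (limma adjusted p = 0.00292). For Ndufb2, a membrane arm subunit of complex I, both brighter probe sets read 0.12 and 0.14 and did not pass, while the dimmest fell by 0.24 ± 0.07 (limma adjusted p = 0.0282). For Sdha the difference lay between its brighter probe sets. The brightest (mean 8.60) read 0.23 and the next (mean 8.17) read -0.13, and neither passed. These genes were chosen after their values were seen, and which transcripts these probe sets match was not tested.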
